A study of Mus musculus with 12 samples.

Results

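The integrated stress response was examined through 10 genes chosen by name, out of 56065 genes listed, in liver RNA of mice. The genes were the transcription factors Atf4, Atf5 and Ddit3, the regulators Trib3 and Nupr1, the phosphatase subunit Ppp1r15a, the amino acid and redox genes Asns, Chac1 and Sesn2, and the secreted protein Stc2. The libraries formed 3 groups of 4, and all mice carried floxed alleles of the aryl hydrocarbon receptor (AhR) on which the labels name no Cre recombinase. MD+CA mice ate a steatohepatitis diet that held 2% cholesterol and drew 40% of the calories from fat and 20% from fructose. They were injected 3 times a week into the peritoneum with 12 mg/kg cinnabarinic acid, a product of tryptophan breakdown that binds AhR, in 0.2% DMSO. MD mice ate the same diet and were injected 3 times a week with the DMSO vehicle in saline. CD mice ate a control diet in which fat gave 10% of the calories, with matching sucrose, and the labels do not say whether they were injected. Feeding started in mice aged 8 weeks and went on for 20 weeks. Nothing in the labels says outright that each library is a different mouse; were some not, the p-values would cover only the variation among libraries, which may be technical.

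In the integrated stress response, kinases that sense unfolded protein, amino acid shortage, haem shortage or viral RNA phosphorylate the initiation factor eIF2alpha. Most translation then slows, while the Atf4 and Atf5 messages are translated more through their upstream reading frames, so that the mRNA level of these genes does not report the level of their proteins. ATF4 in turn activates genes of amino acid supply and redox balance together with Ddit3, which encodes CHOP, a factor linked to cell death under prolonged stress, and Ppp1r15a, whose protein GADD34 helps to remove the phosphate again. Stc2, stanniocalcin 2, is a secreted glycoprotein that is induced through ATF4 in stressed cultured cells and has been described as an AhR target of cinnabarinic acid.

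The libraries held 9089586 to 14492587 reads assigned to transcripts, and 13631 genes had enough reads for the test. Hepatocyte markers, led by Alb, summed to 40940 to 93610 CPM (counts scaled to the effective library size) in the 12 libraries. All mice are labelled male, but Xist had 5122 to 12865 reads and the Y-linked genes Ddx3y, Uty, Kdm5d and Eif2s3y had 0 reads in all 12 libraries, which goes against that label. Some libraries stood apart. MD replicate 2 had 17.51% of its reads in mitochondrially encoded genes, against 4.98 to 10.68% in the other libraries. MD replicates 1 and 2 and MD+CA replicate 1 had a fragment length allowance, the bases that the quantification takes off each transcript, of 230, 221 and 227 bases, against 246 to 280 in the rest. MD+CA replicate 2 contained muscle transcripts, with 66.0 CPM of Acta1 and 193 CPM of Tnnt3, and MD+CA replicate 4 contained adipocyte transcripts, with 7.09 CPM of Adipoq.

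Per transcript length, the 10 genes spanned more than 3 orders of magnitude. Atf5 was the most abundant, with 170 to 617 TPM (transcripts scaled for length and depth) over the 12 libraries and a median of 264 TPM. Atf4 followed with 59.4 to 166 TPM and Ddit3 with 21.4 to 108.5 TPM, so that the 3 transcription factors took the first 3 places. Nupr1 and Ppp1r15a had medians of 4.62 and 4.53 TPM, with ranges of 2.42 to 9.18 and 2.71 to 18.9 TPM; only MD replicates 1 and 2 had more Ppp1r15a than any library had Nupr1. Trib3, Sesn2 and Chac1 had medians of 1.77, 1.55 and 1.09 TPM, again with overlapping ranges. Asns and Stc2 came last, at 0.126 and 0.122 TPM, with 0 to 13 and 1 to 14 reads per library. These last 2 genes had too few reads for the test across genes, whereas the other 8 passed the low-count filter.

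**Figure D1:**
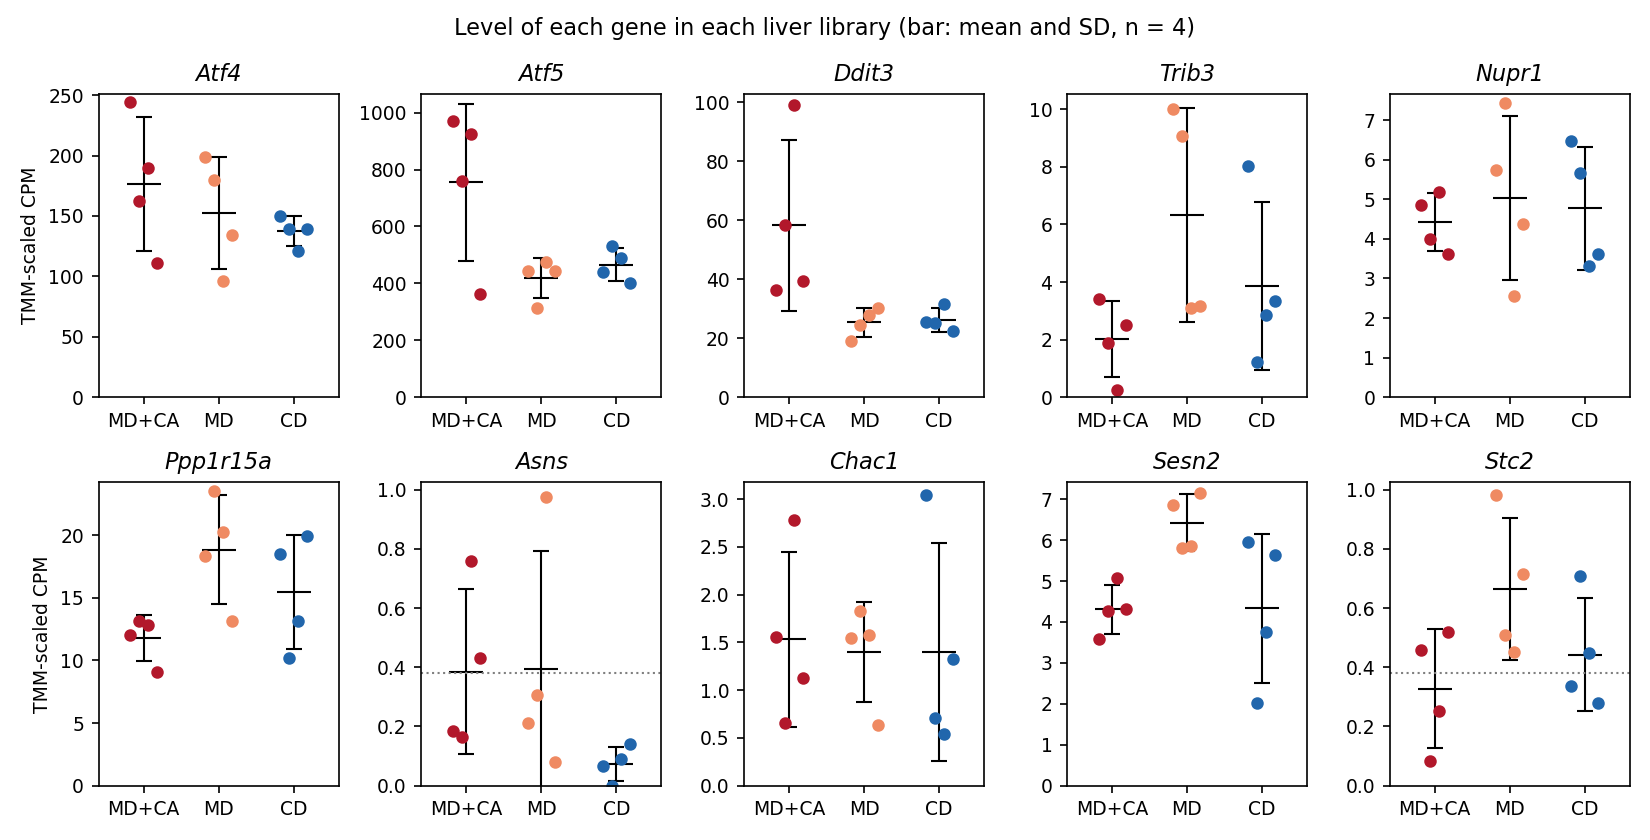
TMM-scaled CPM of each of the 10 genes (vertical axes, from 0, each with its own range) in the 4 libraries of MD+CA, MD and CD, with replicates 1 to 4 from left to right and bars for the mean and SD. Ddit3 is higher in all 4 MD+CA libraries than in any other library, and the dotted line in the Asns and Stc2 panels is the level of 3 reads in the shallowest library, 0.380 CPM.

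The promoters of 4 of these genes are shown because they carry the sequence motifs that bear on the question: Ddit3, the gene with the clearest difference, Stc2, the candidate AhR target, and Asns and Chac1, which hold the ATF4 composite motif. Each is the 250 bases before the transcription start in RefSeq annotation of build GRCm38.p6, written 5′ to 3′ on the gene's strand. Capitals mark motif matches on either strand. Ddit3 is at chr10:127290543-127290792 on the plus strand, Stc2 at chr11:31370062-31370311 on the minus strand, Asns at chr6:7693210-7693459 on the minus strand and Chac1 at chr2:119350992-119351241 on the plus strand.
Ddit3: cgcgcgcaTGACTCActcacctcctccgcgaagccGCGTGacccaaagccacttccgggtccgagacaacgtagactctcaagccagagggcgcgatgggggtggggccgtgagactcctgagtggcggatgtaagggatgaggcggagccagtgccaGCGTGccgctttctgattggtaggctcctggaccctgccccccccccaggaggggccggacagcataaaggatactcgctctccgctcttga
Stc2: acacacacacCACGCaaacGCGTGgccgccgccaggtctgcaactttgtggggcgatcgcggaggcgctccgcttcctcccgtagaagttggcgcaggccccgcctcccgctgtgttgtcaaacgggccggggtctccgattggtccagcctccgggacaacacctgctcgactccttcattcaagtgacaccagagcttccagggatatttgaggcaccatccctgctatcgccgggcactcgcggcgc
Asns: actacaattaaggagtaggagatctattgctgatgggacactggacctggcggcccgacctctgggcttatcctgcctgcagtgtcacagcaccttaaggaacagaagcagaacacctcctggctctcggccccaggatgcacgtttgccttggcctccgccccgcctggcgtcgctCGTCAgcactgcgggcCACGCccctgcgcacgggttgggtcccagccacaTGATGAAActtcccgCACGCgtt
Chac1: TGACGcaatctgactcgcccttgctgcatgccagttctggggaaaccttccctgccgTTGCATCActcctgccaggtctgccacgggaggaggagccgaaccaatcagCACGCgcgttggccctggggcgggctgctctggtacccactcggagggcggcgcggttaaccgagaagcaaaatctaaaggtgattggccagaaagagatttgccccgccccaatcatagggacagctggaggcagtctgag
The ATF4-C/EBP composite, searched as TGATGNAA, was present in 3 of the 11 promoters of the 10 genes (Atf5 has 2 start sites), against 3.45% of all 32851 RefSeq promoters. Those 3 were Asns at positions -23 to -16, Chac1 at -193 to -186 and Nupr1 at -110 to -103, counted from the start. The ATF half-site TGACG was in 5 of 11, against 17.8% of all promoters, and in Ppp1r15a its matches on both strands overlap. The AhR core GCGTG was in 7 of 11, against 28.2%. Stc2 has 2 copies of it, at -240 to -236 and at -231 to -227, and Ddit3 has 2, at -215 to -211 and -92 to -88. The AP-1 site TGANTCA was in 1 of 11, that of Ddit3 at -242 to -236, against 6.75%. An exact match to the ER stress element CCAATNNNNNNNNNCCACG was in 0 of 11, against 0.113%. Matches with a mismatch were not searched. In Ddit3, bases on the minus strand that overlap the AhR core at -92 to -88 differ from this element in 1 base. A match describes the letters in this window and is not a measured binding site.

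Ddit3 was higher in MD+CA than in MD livers. It had 36.4, 58.4, 98.99 and 39.3 CPM in MD+CA livers, replicates 1 to 4, against 19.0, 24.3, 27.8 and 30.2 CPM in MD livers. CD livers had 25.5, 25.1, 31.7 and 22.3 CPM. All 4 MD+CA libraries lay above every MD and CD library, and MD+CA replicate 3 was far above the rest of its group. The fitted fold change for MD+CA vs MD was 2.29, or 1.20 on the log2 scale (SE 0.284, 95% interval 0.594 to 1.80, edgeR adjusted p = 0.0397). Against CD it was 1.15 on the log2 scale (SE 0.283, edgeR adjusted p = 0.0789), which was under 0.05 in 6 of 23 other settings, and between MD and CD it was -0.05 (interval -0.646 to 0.553, edgeR adjusted p = 0.943). In bulk tissue a change in the share of a cell type and a change of RNA per cell cannot be told apart.

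The call of Ddit3 was fragile although its direction was not. The log2 fold change in MD+CA vs MD was positive in all 23 other settings, at 0.81 to 1.37, and its edgeR or other adjusted p was under 0.05 in 10 of them. Of the 12 fits that left out 1 library, the call held in 3, those that dropped MD replicate 3 or replicate 1 or 4 of MD+CA. Dropping MD+CA replicate 3, the library with the highest value, gave a log2 fold change of 0.81 (edgeR adjusted p = 0.0954). Without MD+CA replicate 2, which contained muscle transcripts, it was 1.20 (edgeR adjusted p = 0.0842). Fitted with the fragment length allowance as a covariate, Ddit3 had 0.92 (edgeR adjusted p = 0.144), and leaving out the 3 libraries of short fragments gave 1.17 (edgeR adjusted p = 0.151).

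**Figure D2:**
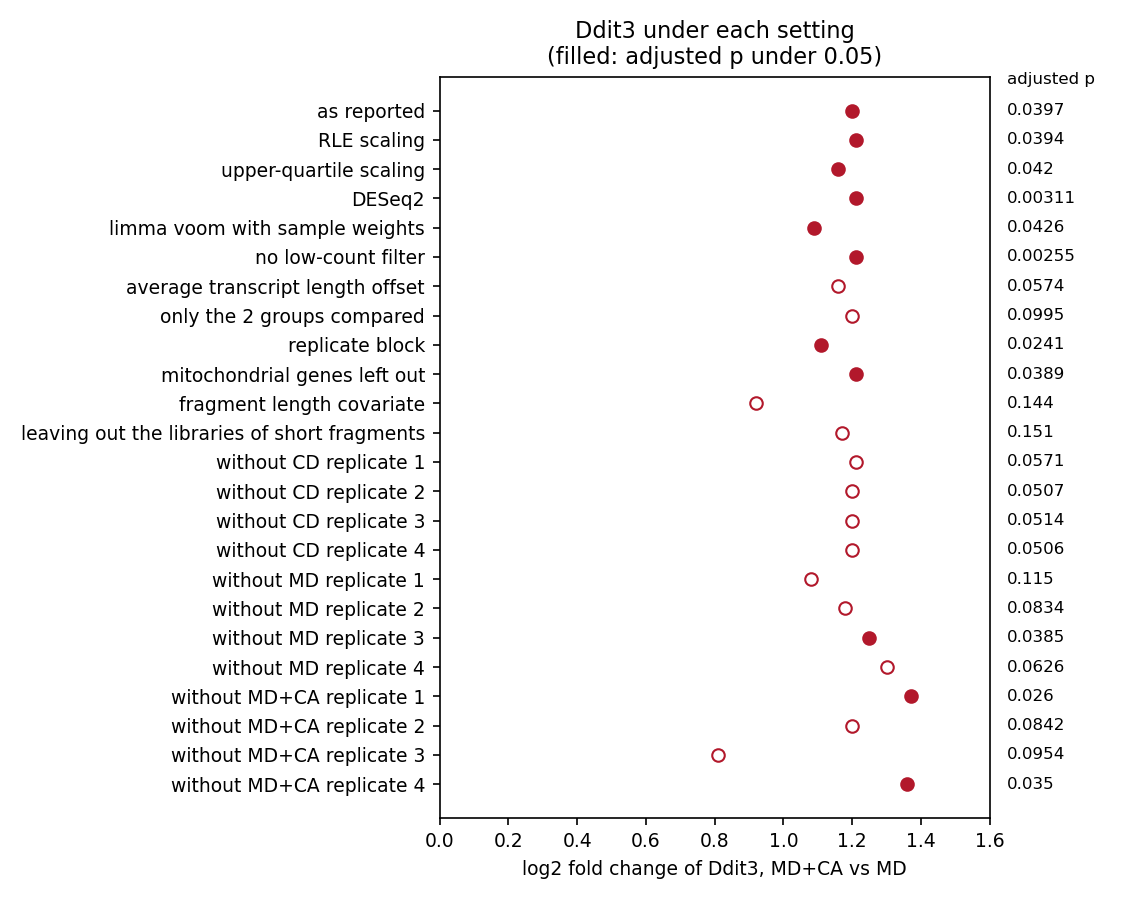
Log2 fold change of Ddit3 in MD+CA vs MD (horizontal axis) in the reported fit and in 23 other settings, with adjusted p at the right and filled points where it was under 0.05. All points lie between 0.81 and 1.37, and the lowest is the fit without MD+CA replicate 3.

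The quantification divided the reads of Ddit3 among 3 transcripts. Ddit3-201, with 890 bases, took 39.0, 70.3, 81.6 and 72.0% of them in MD+CA livers, against 57.9, 52.9, 71.1 and 59.4% in MD livers and 46.4, 74.1, 70.1 and 57.9% in CD livers. The ranges overlapped, and the lowest share was in MD+CA replicate 1, one of the libraries of short fragments. Across the 12 libraries the genes whose log2 CPM was most like that of Ddit3 were Cd163, C6, Ear2, Ifi209 and Ptpn1, with Pearson r of 0.939, 0.927, 0.923, 0.915 and 0.906 among 10796 genes, a comparison added after the values were seen. Cd163 is a scavenger receptor of resident macrophages and C6 a complement component. The 12 Kupffer cell markers, none of them at 0, summed to 422 to 822 CPM in MD+CA livers, 199 to 337 CPM in MD livers and 252 to 314 CPM in CD livers. These sums also separated MD+CA from both other groups, and their part in the level of Ddit3 was not tested.

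Atf5, a bZIP factor of the mitochondrial and amino acid stress responses, had a positive difference that did not pass. It had 971, 760, 925 and 363 CPM in MD+CA livers, against 444, 314, 473 and 442 CPM in MD livers and 440, 532, 489 and 400 CPM in CD livers. In 3 of 4 MD+CA libraries it was above all MD and CD libraries, whereas MD+CA replicate 4, the one with adipocyte transcripts, was within the MD range and below all CD libraries. The log2 fold change in MD+CA vs MD was 0.85 (SE 0.278, edgeR adjusted p = 0.0948). Without MD+CA replicate 4 it was 1.09 and passed (edgeR adjusted p = 0.0285), and it also passed with DESeq2 at 0.87 (adjusted p = 0.0256). Without the 3 libraries of short fragments it was 0.57 (edgeR adjusted p = 0.431). Against CD the value was 0.70 (SE 0.277, edgeR adjusted p = 0.345), and for MD vs CD it was -0.15 (SE 0.276, edgeR adjusted p = 0.780). Over the 12 libraries Atf5 had a Pearson r of -0.61 and a Spearman rho of -0.74 with the mitochondrial share of reads. Its lowest value was in MD replicate 2, where that share was 17.51%. The part of that share in the level of Atf5 was not tested.

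Atf4, the central factor of the response, was not distinguishable between the groups at the mRNA level. It had 244, 163, 190 and 111 CPM in MD+CA livers, against 199, 180, 96.5 and 134 CPM in MD livers and 150, 140, 121 and 139 CPM in CD livers. CD libraries lay close together, while the MD+CA and MD libraries spread about 2 fold and covered each other. The log2 fold change was 0.21 in MD+CA vs MD (95% interval -0.345 to 0.773, edgeR adjusted p = 0.652), 0.15 in MD vs CD (-0.410 to 0.708, adjusted p = 0.777) and 0.36 in MD+CA vs CD (-0.197 to 0.923, adjusted p = 0.747). Atf4 had an r of -0.63 with the fragment length allowance. With that allowance as a covariate the MD+CA vs MD value was 0.56 (unadjusted p = 0.0226, edgeR adjusted p = 0.261). The MD vs CD value changed sign to -0.25 (edgeR adjusted p = 0.707), and to -0.26 without the libraries of short fragments (edgeR adjusted p = 0.761).

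Across the 12 libraries the log2 CPM of Ddit3 and Atf4 had a Pearson r of 0.174 and a Spearman rho of -0.042. That of Ddit3 and Atf5 had an r of 0.699 and a rho of 0.524. Atf4 and Nupr1 had an r of 0.675 and a rho of 0.699. With the fragment length allowance Atf4 had an r of -0.628 and Nupr1 one of -0.611, and its part in the values of this pair was not tested. These correlations are descriptions over libraries that share their group.

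Trib3, a pseudokinase that ATF4 and CHOP induce and that binds both AKT and ATF4, had values opposite to those of Ddit3. It had 3.40, 1.88, 0.253 and 2.51 CPM in MD+CA livers, against 10.0, 9.06, 3.08 and 3.18 CPM in MD livers and 8.04, 1.22, 2.86 and 3.34 CPM in CD livers. The lowest value, 2 reads in MD+CA replicate 3, was in the library with the highest Ddit3. The log2 fold change in MD+CA vs MD was -1.62 (SE 0.613, edgeR adjusted p = 0.136), and it passed in 1 of 23 other settings, that with no low-count filter (-1.60, edgeR adjusted p = 0.0304). Over the 12 libraries Trib3 and Ddit3 had a Pearson r of -0.80 and a Spearman rho of -0.68. Trib3 also followed the fragment length allowance, with an r of -0.67 and a rho of -0.82, while Ddit3 had an r of 0.48 and a rho of 0.57 with it. The part of fragment length in these values was not tested beyond the covariate fit, in which Trib3 had a log2 fold change of -0.78 (edgeR adjusted p = 0.563). Without the 3 libraries of short fragments it was -0.96 (edgeR adjusted p = 0.552). MD vs CD stood at 0.69 and MD+CA vs CD at -0.93 for Trib3 (SE 0.582 and 0.614, edgeR adjusted p = 0.519 and 0.707). The MD vs CD value changed sign to -0.10 with the covariate and to -0.32 without the libraries of short fragments (edgeR adjusted p = 0.954 and 0.900).

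**Figure D3:**
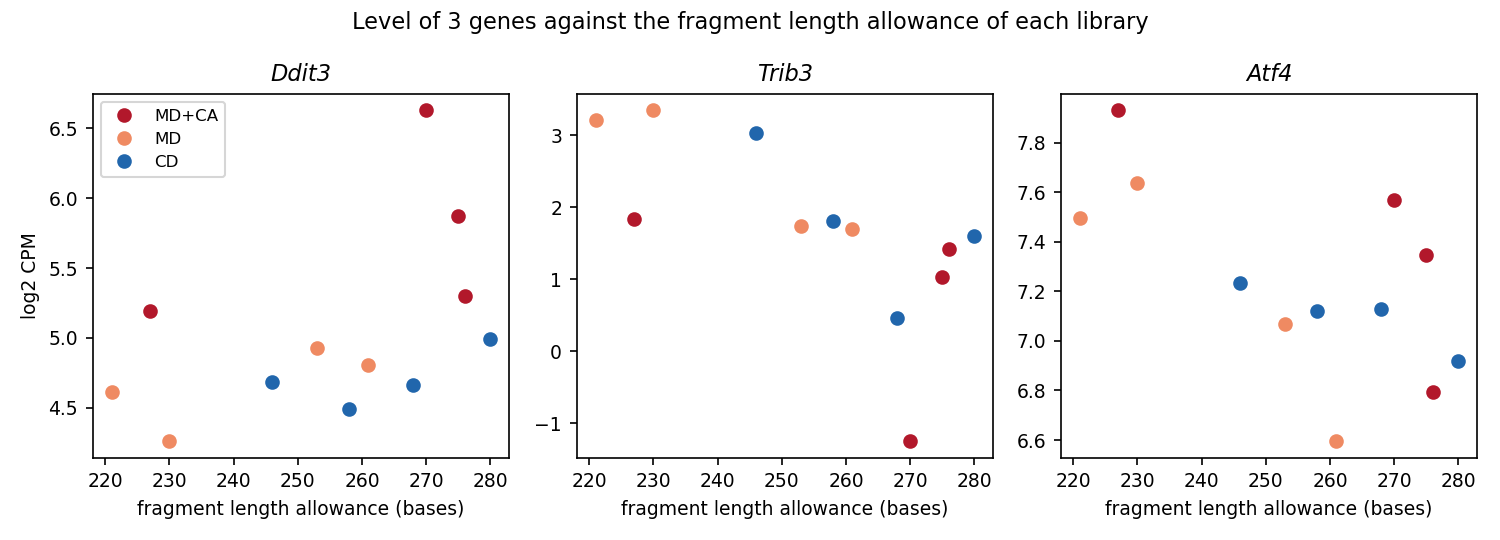
Log2 CPM of Ddit3, Trib3 and Atf4 (vertical axes) against the fragment length allowance in bases (horizontal axes) in the 12 libraries, coloured by group. Trib3 is highest in MD replicates 1 and 2, at 230 and 221 bases, and lowest in MD+CA replicate 3, at 270 bases, where Ddit3 is highest.

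Nupr1, a small chromatin protein that ATF4 induces, was about level in the groups. It had 4.87, 4.01, 5.19 and 3.63 CPM in MD+CA livers, against 5.75, 7.43, 2.55 and 4.38 CPM in MD livers and 6.48, 5.67, 3.31 and 3.62 CPM in CD livers. The MD+CA libraries lay within the MD range, where MD replicate 2 was highest and MD replicate 3 lowest. Nupr1 also has a short transcript marked for nonsense-mediated decay, Nupr1-205 with 570 bases, which took 25.4 reads in MD+CA replicate 1 and 0 in the other MD+CA libraries, 18.8 and 33.9 reads in MD replicates 1 and 2 and 0 in the other MD libraries, and 24.5, 7.07, 4.38 and 10.6 reads in CD livers. Its log2 fold change in MD+CA vs MD was -0.18 (95% interval -0.868 to 0.504, edgeR adjusted p = 0.768), and in MD vs CD 0.07 (edgeR adjusted p = 0.924). With the fragment length covariate these values changed sign, to 0.24 and -0.34 (edgeR adjusted p = 0.796 and 0.710).

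Ppp1r15a, the feedback subunit that directs a phosphatase to eIF2alpha, had lower values in MD+CA livers that did not pass. It had 12.0, 13.2, 12.8 and 9.08 CPM in MD+CA livers, against 18.4, 23.5, 20.3 and 13.1 CPM in MD livers and 18.5, 10.2, 13.1 and 20.0 CPM in CD livers. Only MD replicate 4 reached down into the MD+CA range, and the CD libraries covered most of both ranges. The log2 fold change in MD+CA vs MD was -0.68 (SE 0.242, edgeR adjusted p = 0.118). The difference was larger with an offset for average transcript length, -1.48 (edgeR adjusted p = 0.0886), and the short transcript Ppp1r15a-203 with 389 bases took 19.1 and 24.0 reads in MD replicates 1 and 2 and at most 4.37 in any other library. On the per-length scale Ppp1r15a averaged 4.08 ± 1.23 TPM in MD+CA livers and 9.93 ± 6.95 TPM in MD livers (SD, n = 4). In MD vs CD its log2 fold change was 0.28 (SE 0.239, edgeR adjusted p = 0.526), and 1.3 with the offset (edgeR adjusted p = 0.163). Its constitutive counterpart Ppp1r15b had 77.0 ± 9.28 CPM in MD+CA livers and 114 ± 13.1 CPM in MD livers (SD, n = 4), with no overlap and a log2 fold change of -0.57 (edgeR adjusted p = 0.0793).

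Sesn2, sestrin 2, which restrains mTORC1 and supports antioxidant defence, showed separated groups without passing the test. It had 3.58, 4.26, 5.06 and 4.32 CPM in MD+CA livers, against 6.87, 5.80, 5.86 and 7.16 CPM in MD livers. CD livers had 5.94, 2.03, 3.76 and 5.63 CPM and covered the MD+CA range. The log2 fold change in MD+CA vs MD was -0.58 (SE 0.288, edgeR adjusted p = 0.240), and none of the 23 other settings called it. In MD vs CD it was 0.55 (SE 0.285, edgeR adjusted p = 0.290) and in MD+CA vs CD -0.03.

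Chac1, which degrades glutathione and is among the strongest ATF4 targets in cultured cells, had 6 to 45 reads per library. It had 1.56, 0.655, 2.79 and 1.12 CPM in MD+CA livers, against 1.54, 1.83, 1.58 and 0.637 CPM in MD livers and 3.04, 0.709, 0.536 and 1.32 CPM in CD livers. Every group spread more than 2 fold and covered most of the others. The log2 fold change in MD+CA vs MD was 0.10 (95% interval -1.1 to 1.31, edgeR adjusted p = 0.931). That interval includes changes of 2 fold in either direction, so these counts do not exclude them.

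Asns, asparagine synthetase, is a standard ATF4 target that these livers barely contained. It had 2, 2, 6 and 5 reads in MD+CA livers, against 3, 3, 13 and 1 reads in MD livers and 1, 0, 1 and 2 reads in CD livers. All 4 CD libraries and 3 of 4 MD libraries were at or under 3 reads, the limit that a count of 0 allows. MD+CA replicates 1 and 2 and CD replicate 4 each had 2 reads, so MD+CA and CD met in reads, and their CPM (0.184 and 0.164 in MD+CA, 0.139 in CD) differed only through library size. A permutation test of CPM is therefore not read for this pair. A fit with no low-count filter gave an edgeR adjusted p of 0.610 for MD+CA vs CD and 0.315 for MD vs CD. The MD+CA vs MD values overlapped (exact permutation p = 0.971).

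Stc2 was near its detection limit in every group. It had 5, 1, 2 and 6 reads in MD+CA livers, 14, 5, 6 and 9 reads in MD livers and 5, 7, 5 and 4 reads in CD livers. The groups overlapped, with the highest count in MD replicate 1 and the lowest in MD+CA replicate 2. A level of 3 reads corresponds to 0.203 to 0.380 CPM depending on the library, and MD+CA replicates 2 and 3 were at or under it. Summed over 4 libraries the level was 0.329 CPM in MD+CA livers (14 reads, exact Poisson 95% interval 0.180 to 0.552), 0.680 CPM in MD livers (34 reads, 0.471 to 0.951) and 0.418 CPM in CD livers (21 reads, 0.259 to 0.639). The MD+CA to MD ratio was 0.483 (95% interval 0.240 to 0.925, counting error only), lower and not higher with cinnabarinic acid. Between libraries that difference did not pass an exact two-sided permutation test (p = 0.143, where 70 assignments allow 0.0286 at the least and 6 such tests were made for Stc2 and Asns), nor did MD vs CD (p = 0.171) or MD+CA vs CD (p = 0.400). The MD+CA to CD ratio was 0.787 (95% interval 0.370 to 1.62, counting error only). In a fit with no low-count filter the log2 fold change for MD+CA vs MD was -0.99 (edgeR adjusted p = 0.526). No rise of Stc2 with cinnabarinic acid was detectable at this depth.

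Stc2-201 took all Stc2 reads in 11 of the 12 libraries and 42.2% in CD replicate 4. The genes most like Stc2 in log2 CPM over the 12 libraries were Tafa2, Shmt1, Plxna4, S100a11 and Srpx2, with Pearson r of 0.848, 0.827, 0.816, 0.806 and 0.806 among 10796 genes. With 1 to 14 Stc2 reads per library these values are given as a description only, and no chance level was computed for them.

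**Figure D4:**
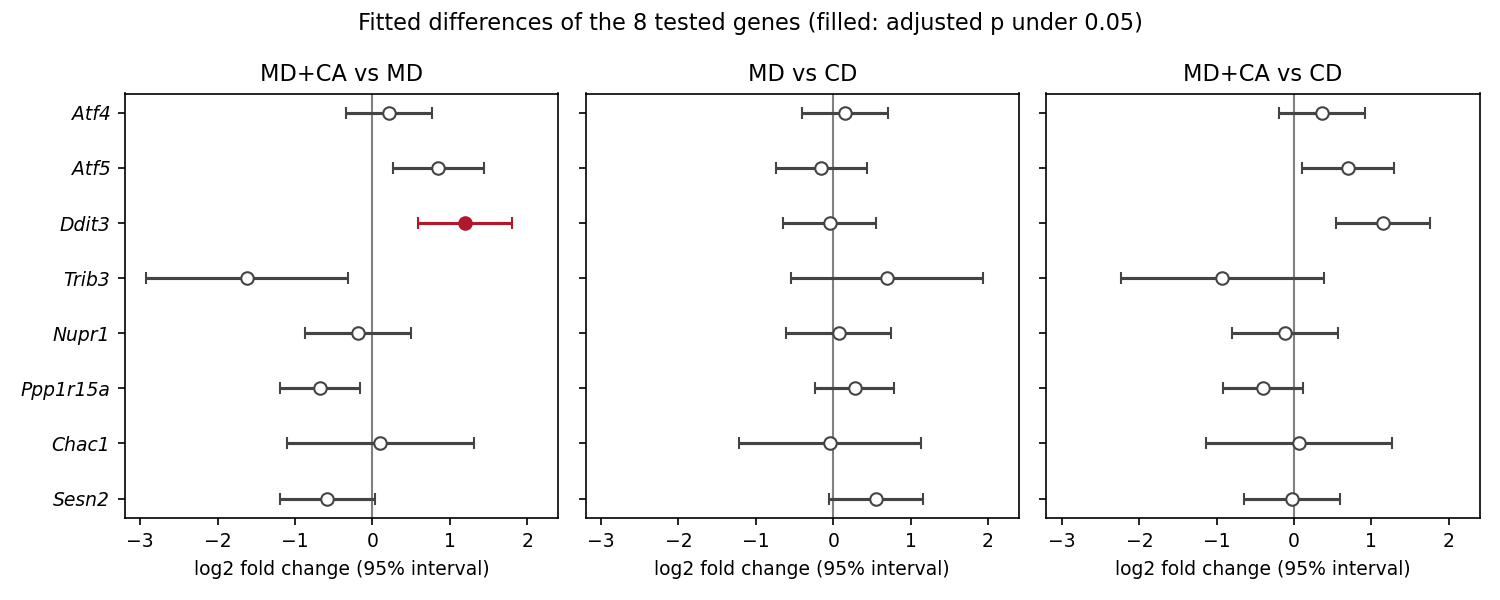
Log2 fold changes with 95% intervals (horizontal axes) of the 8 genes that passed the low-count filter, in MD+CA vs MD, MD vs CD and MD+CA vs CD. The filled point, Ddit3 in MD+CA vs MD at 1.20, is the only one with an edgeR adjusted p under 0.05.

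Of the 8 genes tested, 1 was called in MD+CA vs MD, Ddit3, where 2.71% of all genes tested were called. None was called in MD vs CD by edgeR, DESeq2 or limma voom. Of all genes, edgeR called 12 there (0.088%), DESeq2 629 and limma voom 374. In MD+CA vs CD edgeR called 0 and DESeq2 and limma voom 1 each, Ddit3. Of all genes, edgeR called 72 in this comparison (0.528%), DESeq2 334 and limma voom 191. At an unadjusted p under 0.05 the edgeR fit had 4 of 8 in MD+CA vs MD, beside 23.2% of all genes. It had 0 of 8 in MD vs CD, beside 19.9%, and 2 of 8 in MD+CA vs CD, beside 10.5%. The libraries of both groups did not overlap for 2 of the 8 in MD+CA vs MD (Ddit3 and Sesn2, 10.2% of all genes), 1 in MD+CA vs CD (Ddit3, 6.4%) and 0 in MD vs CD (13.1%). The median log2 fold change of the 8 was -0.04 in MD+CA vs MD, with 4 positive and 4 negative, 0.11 in MD vs CD and 0.02 in MD+CA vs CD, beside -0.0035, 0.04 and 0.02 over all genes. The 8 genes showed no common direction in any of the comparisons.

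The rest of the pathway was followed in 8 lists of other genes, of which 91 were tested. The lists were chosen with earlier results of these data known, so their shares beside all genes are descriptions only. In MD+CA vs MD, 3 were higher and 5 lower, 8.79% of the 91, beside 2.71% of all genes tested. At an unadjusted p under 0.05 the edgeR fit had 39 of the 91 (42.9%), beside 23.2% of all genes tested. In MD vs CD it had 28 of the 91 (30.8%), beside 19.9%, and 1 was called (1.1%, beside 0.088%). The median log2 fold change of the 91 was 0.28 in MD+CA vs MD and -0.20 in MD vs CD. Over all genes it was -0.0035 and 0.04. Tars1 and Aars1, which charge threonine and alanine tRNAs, were higher in MD+CA than in MD livers but were not called against CD. Tars1 had 220 ± 13.9 CPM in MD+CA livers and 106.1 ± 10.8 CPM in MD livers (log2 fold change 1.05, edgeR adjusted p = 0.0198), and Aars1 had 270.0 ± 36.9 CPM in MD+CA livers and 144 ± 31.1 CPM in MD livers (0.90, edgeR adjusted p = 0.0439). CD livers had 201.6 ± 53.5 CPM of Tars1 and 213.6 ± 42.8 CPM of Aars1 (MD+CA vs CD, edgeR adjusted p = 0.93 and 0.698). Of the 18 cytosolic tRNA synthetases, 17 had a positive value in MD+CA vs MD (median 0.50) and 3 in MD vs CD (median -0.44), comparisons that share the MD libraries. Over all genes tested 49.7 and 53.7% were positive. In MD+CA vs CD 15 of the 18 were positive, beside 52% of all genes, with a median of 0.08 and 0 called. Cbs, the first enzyme of transsulfuration, had 327 ± 81.0 CPM in MD+CA livers, against 152 ± 29.2 CPM in MD livers (1.1, edgeR adjusted p = 0.0371). Its level in CD livers was 242.7 ± 73.2 CPM (MD+CA vs CD, edgeR adjusted p = 0.65).

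The 5 that fell in MD+CA vs MD were stress-inducible factors and growth regulators. Gdf15, a circulating stress hormone, had 4.24 ± 1.24 CPM in MD+CA livers, against 22.3 ± 10.6 CPM in MD livers and 3.90 ± 1.56 CPM in CD livers (SD, n = 4). Its log2 fold change was -2.40 in MD+CA vs MD (edgeR adjusted p = 0.0118), and it was the 1 pathway gene called in MD vs CD, at 2.49 (edgeR adjusted p = 0.0392). The bZIP factor Cebpb, a partner of ATF4 and CHOP, fell by 2.19 on the log2 scale (edgeR adjusted p = 0.0198) and the antioxidant factor Nfe2l2 by 0.886 (edgeR adjusted p = 0.0437). Cebpb averaged 62.6 CPM in MD+CA, 285.5 CPM in MD and 113.8 CPM in CD livers. Nfe2l2 averaged 53.7, 99.4 and 67.3 CPM in the same order. Neither was called in MD+CA vs CD (edgeR adjusted p = 0.496 and 0.71). The growth arrest genes Gadd45a and Gadd45b fell by 1.79 and 1.58 (edgeR adjusted p = 0.0328 and 0.0492). Gadd45a had 4.56 to 19.2 CPM in MD+CA, 17.1 to 44.4 CPM in MD and 10.2 to 23.7 CPM in CD livers. Gadd45b was low, at 0.519 to 1.01, 1.11 to 2.87 and 1.11 to 1.96 CPM in the same order, with 6 to 41 reads per library. Leaving out 1 library at a time, the call in MD+CA vs MD held in 12 of 12 fits for Gdf15, 9 for Tars1, 8 for Cebpb, 7 for Gadd45a, 5 for Cbs, 3 for Aars1 and 2 each for Nfe2l2 and Gadd45b. Gdf15 in MD vs CD held in 4 of 12.

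**Figure D5:**
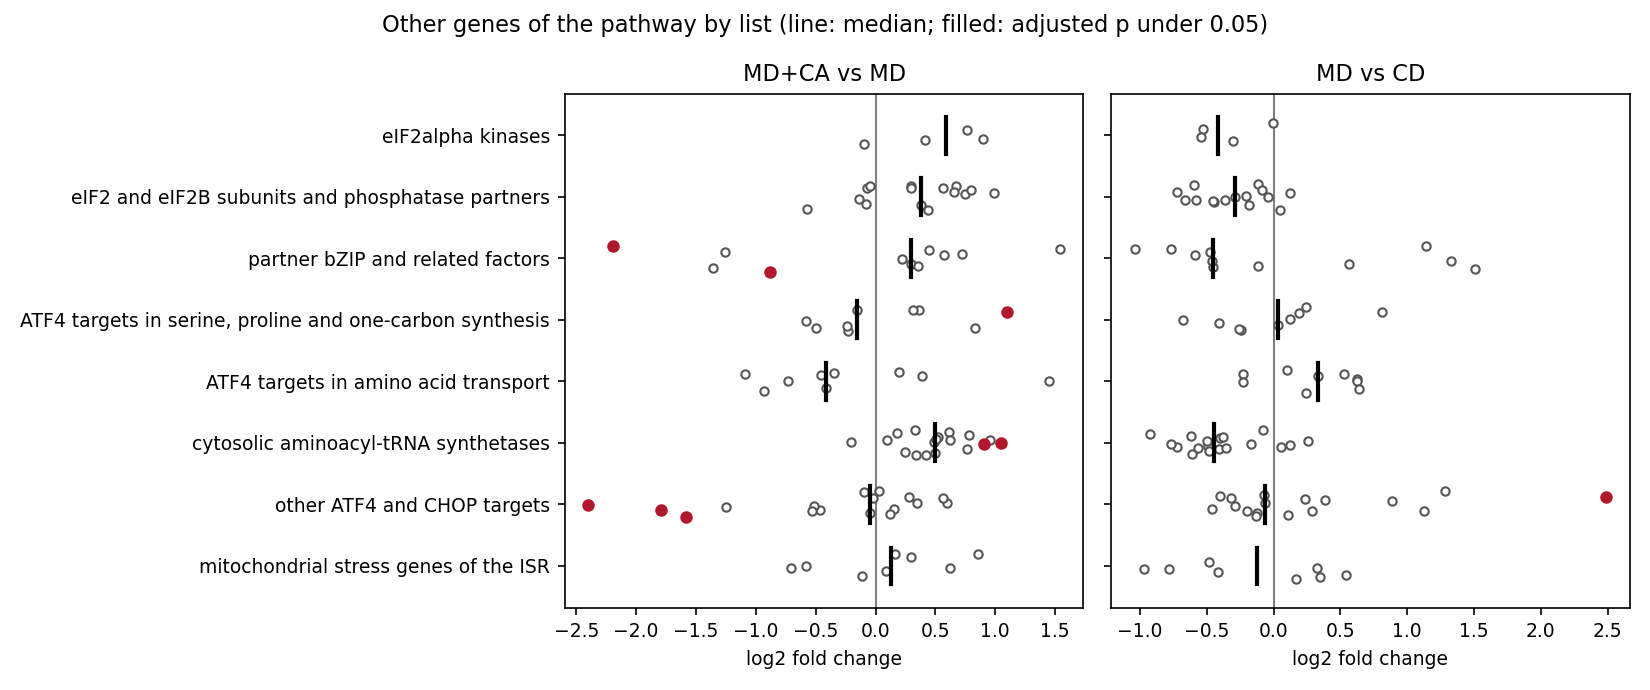
Log2 fold changes (horizontal axes) of the tested genes in 8 lists of the pathway, without the 10 genes above, in MD+CA vs MD and in MD vs CD, with a line at each list's median and filled points for edgeR adjusted p under 0.05. The tRNA synthetases have a median of 0.50 in MD+CA vs MD and -0.44 in MD vs CD.

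Other lists held values that did not pass. Among the eIF2alpha kinases, Eif2ak2 and Eif2ak3, which sense double-stranded RNA and unfolded protein in the endoplasmic reticulum, had log2 fold changes of 0.89 and 0.77 in MD+CA vs MD (edgeR adjusted p = 0.111 and 0.151). The eIF2B subunit Eif2b2 stood at 0.75 (edgeR adjusted p = 0.116). The amino acid transporters diverged, with Slc6a9 at -0.93 and Slc1a4 at 1.45 (edgeR adjusted p = 0.0513 and 0.0937), and the transaminase Gpt2 stood at -0.58 (edgeR adjusted p = 0.250). In the mitochondrial list the chaperone Hspa9 had 0.86 and the carboxykinase Pck2 -0.71 (edgeR adjusted p = 0.146 and 0.171). In MD+CA vs CD 0 of the 91 were called by edgeR and 4 by DESeq2, which called 72 and 334 of all genes. In the edgeR fit 6.59% had an unadjusted p under 0.05, against 10.5% of all genes.

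Of 7 tested genes among AhR and its direct targets, 0 were called in MD+CA vs MD, MD vs CD or MD+CA vs CD by edgeR, with 1, 2 and 0 of the 7 at an unadjusted p under 0.05, beside 23.2, 19.9 and 10.5% of all genes in those comparisons, and 0 by DESeq2 or limma voom. Cyp1a2, a hepatic AhR target, had 188 ± 68.3 CPM in MD+CA livers and 297 ± 100 CPM in MD livers (log2 fold change -0.66, edgeR adjusted p = 0.212), and Tiparp stood at -0.43 (edgeR adjusted p = 0.293). Cyp1a1, the classical target, had 0 to 6 reads per library.

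Other gene groups moved in MD+CA vs MD, where edgeR called 2.71% of all genes tested. Of 13 chaperones of the endoplasmic reticulum, 5 were higher in MD+CA vs MD, among them Hspa5, known as BiP, at 1596 ± 286 CPM in MD+CA livers and 714 ± 155 CPM in MD livers (log2 fold change 1.16, edgeR adjusted p = 0.0222). The 13 chaperones had 0 calls in MD+CA vs CD (13 positive, median 0.43) and 0 in MD vs CD (0 positive, median -0.58). Of 11 immediate early genes, 7 were lower in MD+CA vs MD. In MD+CA vs CD 0 of these 11 were called. In MD vs CD 10 of them were positive (median 2.34), beside 53.7% of all genes, and 1 was called, Jun. Jun had 17.2 to 45.5 CPM in MD+CA livers, against 50.5 to 300.5 CPM in MD livers and 12.4 to 42.3 CPM in CD livers. Fos averaged 1.26 ± 0.743 CPM in MD+CA livers and 54.4 ± 49.7 CPM in MD livers (SD, n = 4), and Egr1 had 5.97 to 14.8 CPM in MD+CA livers, against 37.8 to 539 CPM in MD livers. CD livers had 0.101 to 4.87 CPM of Fos and 2.33 to 67.7 CPM of Egr1. Of 17 clock genes 1 was higher and 9 lower in MD+CA vs MD: Bmal1 had 8.76 to 17.1 CPM in MD+CA livers, against 0.716 to 1.93 CPM in MD livers, and Per3 had 1.52 to 11.8 CPM in MD+CA livers, against 56.8 to 91.1 CPM in MD livers. Against CD, 1 of the 17 clock genes was higher in MD+CA livers and 4 were lower, where edgeR called 0.528% of all genes. The hour of collection is not given in the sources used here, so hour and treatment cannot be told apart, and the part of either gene group in the values of Ddit3, Cebpb, Gdf15 or the Gadd45 genes was not tested.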

How the data were processed

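Poly(A)-selected liver RNA was sequenced in 12 libraries. The submitters' processing notes list GRCm39 as the build and, as tools, Salmon 1.10.3, fastp and DESeq2. Strandedness is not given in the sources used here, so reads of overlapping antisense genes cannot be told apart. Each deposited table gives per transcript an estimated count, not normalized, and a TPM value that the authors' quantification scaled for length and depth, per the file headers. It also gives an effective length, from which the fragment length allowance was taken.

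Estimated counts were summed per gene identifier and rounded. Ddit3 has a second gene identifier with 0 reads in all libraries. Genes passing filterByExpr (minimum count 10) were fitted with edgeR 4.0.16 (R 4.3.3), TMM scaling and a quasi-likelihood model of the 3 group means in all 12 libraries (9 residual degrees of freedom, biological coefficient of variation 0.308). P-values were adjusted by Benjamini-Hochberg over the 13631 genes, and calls are those under 0.05. CPM values are TMM-scaled and log2 CPM has a prior count of 2. Stc2 and Asns failed the filter and were compared by exact two-sided permutation of CPM, chosen after seeing the data. Poisson intervals and the floor of 3 counts cover counting error only. The steps were tested on simulated counts.

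The 10 genes and the lists were chosen with earlier results of these data known. The named pathway genes are those called in any comparison and the 2 with the smallest p of each list in MD+CA vs MD. The genes likest to Stc2 come from those with an average log2 CPM of at least 1. Hspa5, Alb and the muscle and adipocyte genes were picked with their values in view. Promoters were matched by symbol for 10 of 10 genes. No 2 libraries of a group agreed within sampling noise. The labels name no batch. Alternatives were RLE and upper-quartile scaling, DESeq2 1.42.0, limma 3.58.1 voom with sample weights, no filter, a transcript length offset, the 2 compared groups alone, a replicate block, no mitochondrial genes, a fragment length covariate and leaving out each library. Leaving out the 3 libraries with an allowance under 235 bases was added after seeing the data.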

Additional observations from a re-analysis of the deposited data

How the results depend on the processing

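Counts of genes called moved with most choices, including single libraries. In MD+CA vs MD, 369 genes, 1 of the 10 genes (Ddit3) and 8 pathway genes were called. With DESeq2 these counts were 1214, 2 and 18, with no low-count filter 1017, 2 and 14, and with a transcript length offset 197, 0 and 4. They were 99, 0 and 3 with only the compared groups, 142, 0 and 4 with a fragment length covariate, and 35, 0 and 0 without the libraries of short fragments. Leaving out 1 library at a time gave 109 to 963, 0 to 2 and 1 to 15. In MD vs CD, 12 genes and 1 pathway gene were called. The counts were 629 and 7 with DESeq2, 374 and 7 with limma voom, 481 and 5 with no filter, 2 and 0 with the offset, 6 and 0 with the covariate, and 4 and 0 without the libraries of short fragments. With only the compared groups 35 genes were called, and leaving out 1 library gave 0 to 26 and 0 to 1. None of the 10 genes was called in MD vs CD in any setting run. In MD+CA vs CD, 72 genes were called, and 0 of the 10 genes and 0 pathway genes. With DESeq2 these counts were 334, 1 and 4, and with no filter 390, 1 and 1. Voom gave 191 genes and 1 of the 10, the covariate 164 and 1, the offset 34 genes and only the compared groups 46. Leaving out 1 library gave 17 to 169, 0 to 1 and 0 to 1. The cause of these shifts was not tested.

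Same-numbered libraries of different groups had deviations correlating at -0.0792 to 0.35, over 0.1 in 8 of 12 pairs, including all pairs of replicates 1 and 3. Since not every pair was over 0.1 and the labels state no shared batch or day, the numbers were not taken to pair the samples. Nor did every library correlate best with its own number (CD replicate 4 did so with MD+CA replicate 1, at 0.308). With a replicate block 664 genes and 14 pathway genes were called in MD+CA vs MD, 0 pathway genes in MD vs CD, and 154 genes, 1 of the 10 genes (Ddit3, log2 fold change 1.07, edgeR adjusted p = 0.0483) and 1 pathway gene in MD+CA vs CD. No named gene reversed its direction past the threshold in any setting. Stc2 and Asns have no value in most settings because they fail the filter, and depth limits both.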
